A study of Homo sapiens with 32 samples.

Results

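Chromatin loops near the ends of human chromosomes were compared between untreated cells and cells exposed to sorbitol, a sugar alcohol that withdraws water from cells by raising the osmolarity of the medium. Loops had been called from in situ Hi-C, in which DNA ends that lie near each other in fixed nuclei are ligated and sequenced. A loop counted as subtelomeric when both of its anchors, the 5 kb segments it joins, lay within 3 Mb of a chromosome end in hg38 on chromosomes 1 to 22. This held for 2770 of 44750 loops on these chromosomes, and for 2770 of 45629 loops in all. The groups were wild-type HEK293, derived from human embryonic kidney, and HEK293 carrying eGFP-YAP, the transcriptional co-activator YAP joined to a green fluorescent protein. Each line was left untreated or given 200 mM sorbitol for 1 h, and the design text adds 1 h of serum starvation before sorbitol for the eGFP-YAP cells. The labels name 3 replicates per wild-type condition and 4 per eGFP-YAP condition, but each condition came with a single loop list, so no difference below could be set against replicate spread and none was tested. The labels do not say whether eGFP-YAP is a single clone or what drives its expression, the growth protocol writes HEK293T, and the lists of the lines carry different source names, so line and source cannot be told apart. Of the 32 samples, 14 belonged to these groups and 18 were not analysed here.

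The subtelomeric loops numbered 703 in the wild-type control list, 688 in the wild-type sorbitol list, 744 in the eGFP-YAP control list and 635 in the eGFP-YAP sorbitol list. They were compared with 4681 loops lying 3 to 10 Mb from the end of the same 39 arms, which numbered 1492, 728, 1759 and 702 in the same order. The short arms of 5 acrocentric chromosomes have no terminal sequence in hg38 and held no members. Loops that crossed the 3 Mb line (66, 35, 67 and 32) belonged to neither band. Intervals are 95% intervals and cover counting error only, since the sequencing depth behind each list is unknown and neighbouring loops are not independent. Hi-C averages over many cells, so fewer cells with a loop and a weaker loop in each cell cannot be told apart.

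Human chromosomes end in tracts of the repeat TTAGGG, and the megabases inside them are rich in genes, in G and C, and in duplicated sequence. Many loops form when cohesin extrudes DNA until it meets CTCF, a zinc-finger protein bound to a motif with a direction, and the usual arrangement has the motifs of both anchors pointing towards each other. Other contacts join active promoters to each other or to enhancers. The terminal 3 Mb held 115 Mb of sequenced DNA with 14.3 protein-coding genes per Mb and 48.4% GC, the 3 to 10 Mb band held 273 Mb with 8.93 genes per Mb and 44.1% GC, and chromosomes 1 to 22 as a whole had 6.93 genes per Mb and 41.0% GC.

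CTCF motif matches are shown first for some of the highest-scoring loops of 3 classes, since the classes are later compared for motifs and gene starts. The classes are loops called in all 4 lists, loops called only in the control lists of both lines, and loops called only in the sorbitol lists of both lines. The motif was the 14-base CTCF core consensus with at most 1 mismatch on either strand. Capitals mark the match with 8 bases of hg38 on each side, read 5′ to 3′ on the strand of the motif.
17p left, chr17:411185-411214, plus: cctcgcacCCACCAAGGGGCAGccttggac
17p left, chr17:412403-412432, plus: tcataccaTCAGCAGGGGGCACcagatagt
17p right, chr17:700688-700717, minus: cctcttgtCCATTAGGGGGCACcatttcct
11p left, chr11:2428371-2428400, plus: cctgtcagCCACCAGAGGGCGCtaaaggac
11p right, chr11:2525073-2525102, plus: cagttgcaCCAGCAAGGGGCAGagacccag
11p left of a second loop, chr11:2531548-2531577, minus: gcaaatagCCACCAGGTGGCGCacagaccc
21q left, chr21:45555069-45555098, plus: gggagtggCCACCAGGGGGCGAgcggcgcc
The 3 sites on 17p lie in introns of C17orf97 and VPS53 and belong to the control-only loop with the highest mean score percentile, 99.6, which joined chr17:410001-415000 to chr17:700001-705000 over 290 kb. Its plus-strand matches on the left and minus-strand match on the right point towards each other. VPS53 encodes a subunit of a complex that tethers vesicles at the Golgi. The first 11p pair lies in introns of TRPM5, a cation channel gene, and KCNQ1, a potassium channel gene of an imprinted cluster, and both matches are on the plus strand. That loop was control-only, joined chr11:2425001-2430000 to chr11:2525001-2530000 and had a mean percentile of 97.6. The third 11p site has no mismatch and lies in an intron of KCNQ1, at the left anchor of a loop found in all 4 lists. The 21q site lies in an intron of SLC19A1, the folate carrier gene, at the left anchor of a sorbitol-only loop.

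Promoter sequence is shown for 3 genes whose starts lay in anchors of sorbitol-only loops. Each sequence is the 250 bases before the gene start, from RefSeq on GRCh38.p14, and is identical to hg38. Capitals mark the GC box GGGCGG, the core of the Sp1 site, on either strand.
PARD6G, chr18:80247515-80247764, minus: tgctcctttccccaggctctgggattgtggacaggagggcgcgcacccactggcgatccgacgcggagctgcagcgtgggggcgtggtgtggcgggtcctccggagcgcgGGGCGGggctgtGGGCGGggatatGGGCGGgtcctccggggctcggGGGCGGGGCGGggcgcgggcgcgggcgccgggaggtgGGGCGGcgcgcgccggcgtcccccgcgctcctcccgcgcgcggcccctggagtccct
DPYSL4, chr10:132186698-132186947, plus: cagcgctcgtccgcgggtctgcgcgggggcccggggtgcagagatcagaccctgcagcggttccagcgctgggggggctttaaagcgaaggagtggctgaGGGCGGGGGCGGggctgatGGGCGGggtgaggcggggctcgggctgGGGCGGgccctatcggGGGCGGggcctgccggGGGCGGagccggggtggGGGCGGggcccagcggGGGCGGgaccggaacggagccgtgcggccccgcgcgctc
CDCA4, chr14:105021084-105021333, minus: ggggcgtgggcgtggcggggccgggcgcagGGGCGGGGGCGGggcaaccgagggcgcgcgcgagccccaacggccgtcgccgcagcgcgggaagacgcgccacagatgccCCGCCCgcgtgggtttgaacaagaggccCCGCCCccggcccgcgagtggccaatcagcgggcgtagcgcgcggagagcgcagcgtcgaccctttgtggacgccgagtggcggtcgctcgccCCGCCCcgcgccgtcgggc
These windows hold 6, 8 and 5 GC boxes in the order shown, and overlapping boxes were counted separately. PARD6G encodes a scaffold of cell polarity, DPYSL4 a relative of dihydropyrimidinase, and CDCA4 a cell-cycle-associated nuclear protein.

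The first comparison addressed how the number of loops near the ends differed between conditions. In wild type the number with sorbitol was close to that in control, 688 against 703, a ratio of 0.979 (exact interval 0.880 to 1.09). Loops 3 to 10 Mb from the end numbered 728 against 1492, a ratio of 0.488 (0.446 to 0.534), and all loops of chromosomes 1 to 22 outside the terminal band gave 0.362 (0.350 to 0.373). In eGFP-YAP cells the terminal ratio was 0.853 (0.767 to 0.95), against 0.399 (0.365 to 0.436) in the 3 to 10 Mb band and 0.274 (0.266 to 0.283) elsewhere. Both terminal ratios lay on the other side of 1 when each list was cut to its upper 50% by peak score, at 1.11 (0.964 to 1.29) for wild type and 1.07 (0.929 to 1.24) for eGFP-YAP. The wild-type ratio did so with a band of 2 Mb as well, 1.05 (0.923 to 1.19). Divided by the ratio of the 3 to 10 Mb band, which comes from the same pair of lists, the terminal ratio was 2.01 (1.75 to 2.30) for wild type and 2.14 (1.86 to 2.45) for eGFP-YAP.

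The bands held control loops at similar densities and differed in the sorbitol lists. Wild-type control loops numbered 6.11 per Mb of sequenced DNA in the terminal band and 5.47 per Mb in the 3 to 10 Mb band. With sorbitol they numbered 5.98 and 2.67 per Mb. In eGFP-YAP cells the control densities were 6.46 and 6.45 per Mb and the sorbitol densities 5.52 and 2.57 per Mb. The terminal loops made up 4.71% of the wild-type control list and 11.8% of the sorbitol list, and 4.02% and 11.5% in eGFP-YAP cells.

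The ratio was lower further from the end in both lines, although not at each step. By the midpoint of the loop, it was 1.37 (1.05 to 1.80) at 0 to 0.5 Mb in wild type, from 97 control and 133 sorbitol loops. It was 1.06 (0.855 to 1.31) at 0.5 to 1 Mb, 0.637 (0.450 to 0.896) at 2.5 to 3 Mb, 0.515 (0.416 to 0.636) at 3 to 4 Mb and 0.334 (0.322 to 0.348) beyond 20 Mb. In eGFP-YAP cells the values at the same distances were 0.948 (0.724 to 1.24), 1.01 (0.809 to 1.25), 0.640 (0.447 to 0.907), 0.454 (0.365 to 0.561) and 0.246 (0.236 to 0.255). The intervals of the classes on either side of the 3 Mb line overlap in both lines and are wide, so they cannot decide whether there is a step at the line.

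**Figure D1:**
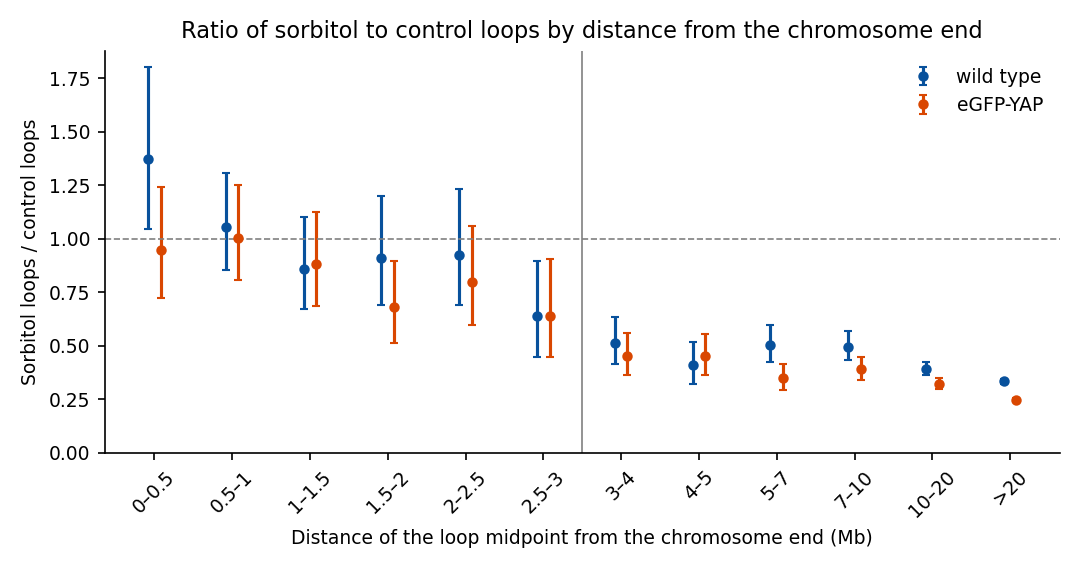
Ratio of sorbitol to control loops (vertical axis) by distance of the loop midpoint from the nearer chromosome end in Mb (horizontal axis, classes of unequal width) in wild-type and eGFP-YAP cells. Points are ratios of loop counts, bars are exact 95% intervals, the dashed line marks a ratio of 1 and the vertical line marks 3 Mb. Ratios lie at 0.637 or above in every class within 3 Mb and at 0.515 or below in every class beyond it.

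The loops closest to the 3 Mb line on either side are given as a description. In the wild-type control list the innermost terminal loop reached 2996 kb from the end of 15q, within an intron of PGPEP1L at its left anchor, at score percentile 0.0527, and the nearest loop beyond the line began 3000 kb from the end of 12q at percentile 54.8. In the wild-type sorbitol list they were a 60 kb loop on 21q joining the starts of PDXK, a vitamin B6 kinase gene, and CSTB, a protease inhibitor gene, at percentile 40.9, and a 155 kb loop on 6p joining NQO2 to the start of TUBB2A at percentile 54.9. In the eGFP-YAP lists the percentiles just inside and outside were 29.0 (20p, VPS16 to PTPRA) and 71.3 (11p, CARS1 to MRGPRG) in control, and 59.1 (14q, TDRD9) and 76.8 (6p, NQO2 to SLC22A23) with sorbitol.

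The ratio was also higher at higher GC content of the anchors and with more gene starts nearby, both of which are higher near the ends, so the bands were compared within classes of each. GC content here is the mean over both anchors. In the class of 45 to 50% GC the wild-type terminal ratio was 1.00 (0.781 to 1.28), against 0.565 (0.479 to 0.666) in the 3 to 10 Mb band. At 55% GC and above it was 1.38 (1.16 to 1.64) against 0.825 (0.641 to 1.06). In eGFP-YAP cells the corresponding values were 0.701 (0.548 to 0.893) against 0.375 (0.317 to 0.443), and 1.28 (1.07 to 1.52) against 0.994 (0.790 to 1.25). The terminal ratio was above that of the 3 to 10 Mb band in all 5 GC classes of both lines, but the intervals overlapped at 50 to 55% GC in wild type, 0.717 (0.567 to 0.903) against 0.607 (0.508 to 0.725), and in the highest class in eGFP-YAP. In that wild-type class all loops outside the terminal band had a ratio of 0.697 (0.641 to 0.757), close to the terminal value.

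Classes by gene density gave the same order. With 10 to 20 protein-coding gene starts in the 1 Mb around the loop midpoint, the terminal ratio was 1.08 (0.898 to 1.29) against 0.530 (0.443 to 0.633) for wild type, and 0.852 (0.702 to 1.03) against 0.430 (0.359 to 0.513) in eGFP-YAP. The terminal ratio was the higher in all 5 classes of both lines, but the intervals overlapped from 20 starts upwards in both lines and below 5 starts in eGFP-YAP. With 30 or more starts the ratios were 1.23 (0.967 to 1.57) against 0.960 (0.742 to 1.24) and 1.17 (0.938 to 1.46) against 0.802 (0.641 to 1.003). GC content and gene density vary together, and the part of either in the terminal ratio was not tested beyond these classes.

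**Figure D2:**
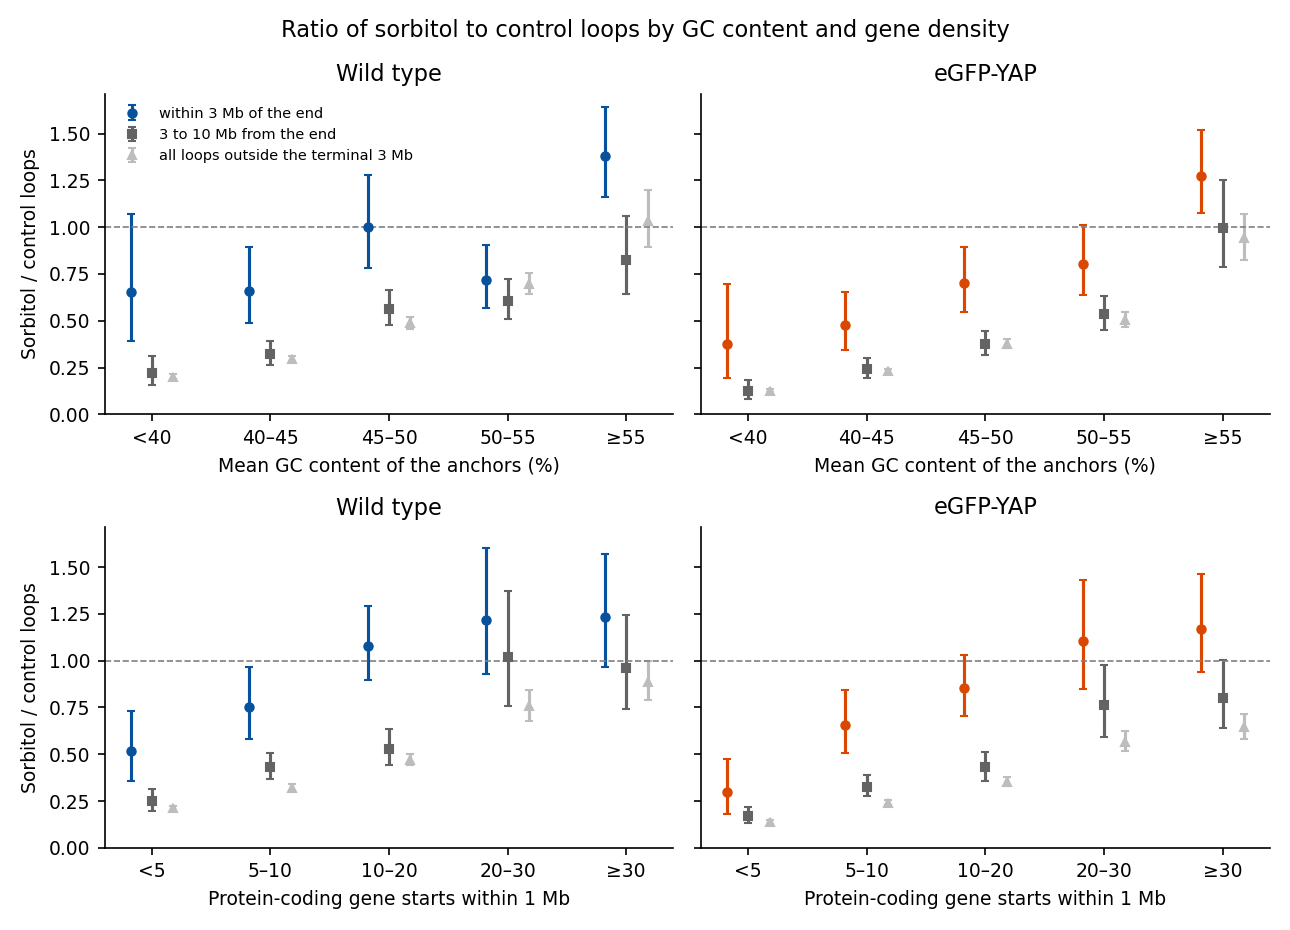
Ratio of sorbitol to control loops (vertical axes) by mean GC content of the anchors in percent (upper panels) and by protein-coding gene starts within 1 Mb (lower panels), wild type on the left and eGFP-YAP on the right. Circles are loops within 3 Mb of the end, squares loops 3 to 10 Mb from it and triangles all loops outside the terminal 3 Mb, those of the squares included, with exact 95% intervals. Circles lie above squares in all classes, with overlapping intervals in some, such as 0.717 against 0.607 at 50 to 55% GC in wild type.

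Single arms differed widely. Among arms with at least 5 terminal control loops, the terminal ratio was above that of the 3 to 10 Mb band in 30 of 36 arms in wild type and in 30 of 35 arms in eGFP-YAP. The exceptions were 2p, 11q, 12p, 15q, 19p and 22q in wild type and 2p, 6p, 9p, 17p and 22q in eGFP-YAP. The median terminal ratio over these arms was 0.929 in wild type, from 0.200 on 2p to 2.23 on 4p, and 0.778 in eGFP-YAP, from 0 on 9p to 3.67 on 1p. The 9p value rests on 18 control loops and 0 sorbitol loops, which allows a count of up to 3. The 1p value rests on 6 control and 22 sorbitol loops, and in wild type the same arm had 20 and 11.

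The 5 arms with the most terminal control loops of both lines were 6p, 17q, 8q, 21q and 9q. On 6p the counts went from 50 to 36 in wild type and from 37 to 13 in eGFP-YAP. On 17q they went from 42 to 23 and from 34 to 23. On 8q they went from 43 to 49 and from 28 to 34, while the 3 to 10 Mb band of the same arm went from 19 to 6 and from 22 to 7. On 21q the lines differed in direction, with wild type going from 33 to 24 and eGFP-YAP from 36 to 40. They also did on 9q, with 25 to 38 for wild type and 40 to 30 for eGFP-YAP. Across 35 arms the terminal ratios of the lines had a Spearman rho of 0.566 and a Pearson r of 0.255, and with the GC content of the terminal 3 Mb Spearman rho was 0.391 for wild type and 0.654 for eGFP-YAP. Arms share their list and its calling, and these values describe the lists only.

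**Figure D3:**
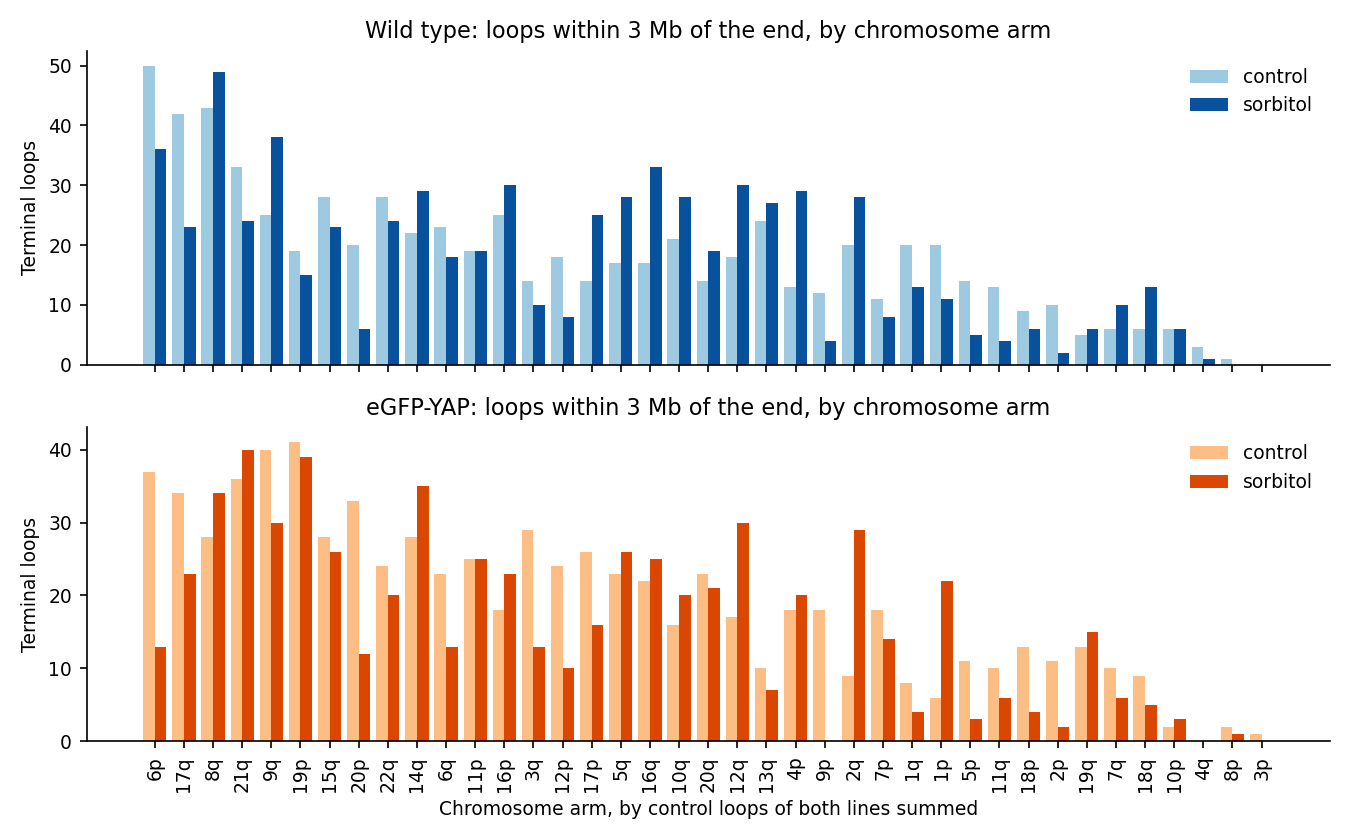
Number of loops within 3 Mb of the end (vertical axes) on each of 39 chromosome arms (horizontal axis, ordered by control loops of both lines summed), wild type above and eGFP-YAP below. Light bars are control and dark bars sorbitol lists. Bars of 6p go from 50 to 36 and from 37 to 13, and those of 8q from 43 to 49 and from 28 to 34.

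Loop span, the distance between anchor centres, was longer with sorbitol near the ends. The median was 160 kb (150 to 180 kb) in the wild-type control list and 200 kb (180 to 215 kb) in the sorbitol list, and 180 kb (170 to 190 kb) and 205 kb (190 to 215 kb) in eGFP-YAP. The intervals of the conditions meet at 180 kb in wild type and at 190 kb in eGFP-YAP. In the 3 to 10 Mb band the medians went the other way, from 210 to 200 kb and from 225 to 210 kb. Control loops near the ends were thus shorter than those further in, and sorbitol loops were about equally long in both bands.

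The change in span came with a change in the mix of classes. Terminal loops under 100 kb had a ratio of sorbitol to control of 0.747 (0.587 to 0.948) for wild type and 0.740 (0.576 to 0.949) for eGFP-YAP. Terminal loops of 400 kb and over had 1.51 (1.13 to 2.02), from 82 control and 124 sorbitol loops, and 1.12 (0.858 to 1.46), from 111 and 124. In the 3 to 10 Mb band loops of 400 kb and over had 0.426 (0.344 to 0.525) and 0.377 (0.309 to 0.457). The bands therefore lay furthest apart among long loops.

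**Figure D4:**
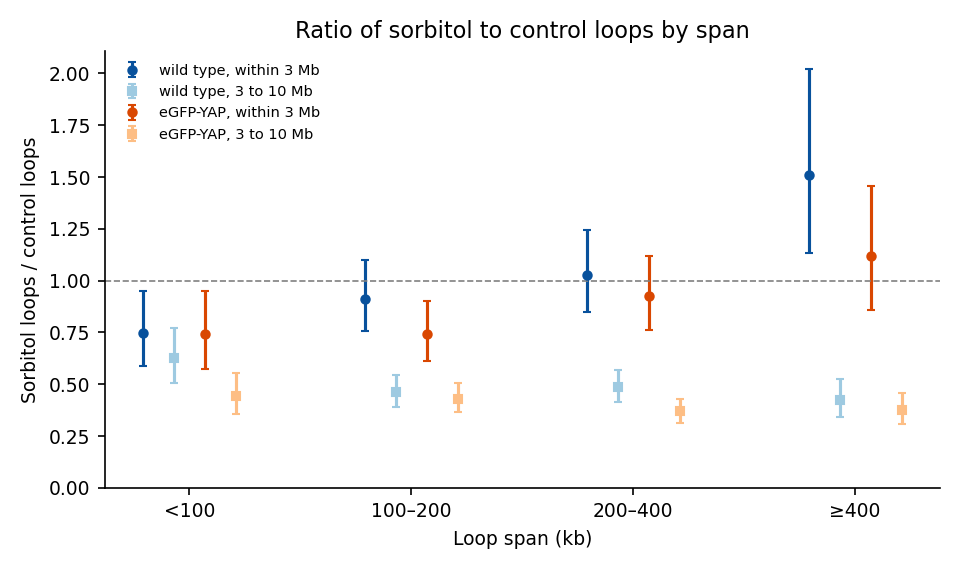
Ratio of sorbitol to control loops (vertical axis) by loop span in kb (horizontal axis) for loops within 3 Mb of the end and loops 3 to 10 Mb from it in each line, with exact 95% intervals and a dashed line at a ratio of 1. Terminal ratios go from 0.747 to 1.51 in wild type and from 0.740 to 1.12 in eGFP-YAP between the shortest and the longest class, while those of the other band stay at 0.627 or below.

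The longest members were a 1570 kb loop on 4q in the wild-type control list, a 1250 kb loop on 6p ending in MYLK4 in the wild-type sorbitol list, and a 1630 kb loop on 6q that was the longest in both eGFP-YAP lists and joined chr6:168890001-168895000 to chr6:170520001-170525000. The members nearest an end had an outer anchor edge 15.97 kb from the end of 7q, with the inner anchor in VIPR2, a neuropeptide receptor gene (wild-type control), 15.3 kb from the end of 12q (wild-type sorbitol and eGFP-YAP control) and 16.6 kb from the end of 11q (eGFP-YAP sorbitol). Of these, the 12q loop of the wild-type sorbitol list joined its end to CHFR, a mitotic checkpoint gene, at score percentile 97.9.

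Peak score, which the caller assigns to each loop, was turned into a percentile within each list. Terminal control loops lay in the middle of their lists, with medians of 50.7 (46.4 to 54.3) for wild type and 49.2 (46.1 to 53.6) for eGFP-YAP. Terminal sorbitol loops ranked higher, with medians of 58.6 (54.6 to 61.9) and 61.1 (57.9 to 64.9), against 51.4 (47.8 to 54.4) and 51.0 (47.7 to 54.3) in the 3 to 10 Mb band. Of the terminal sorbitol loops, 16.9% in wild type and 16.1% in eGFP-YAP lay above the 90th percentile of their list, against 12.5% and 10.9% of the terminal control loops.

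The next comparison addressed how far the control and sorbitol lists held the same terminal loops. A control loop counted as called again when both anchor centres of a loop in the other list lay within 10 kb. In wild type 89 of 703 terminal control loops were called again, 12.7% (Wilson interval 10.4 to 15.3), against 8.65% (7.32 to 10.2) in the 3 to 10 Mb band and 7.84% of all loops of chromosomes 1 to 22. In eGFP-YAP cells 99 of 744 were called again, 13.3% (11.1 to 15.9), against 11.6% (10.2 to 13.2) and 9.34%. Conversely, 599 of 688 terminal loops of the wild-type sorbitol list lacked a control partner at that distance, 87.1% (84.3 to 89.4), against 82.6% (79.6 to 85.1) in the 3 to 10 Mb band and 79.9% of all sorbitol loops. In eGFP-YAP cells it was 536 of 635, 84.4% (81.4 to 87.0), against 71.1% (67.6 to 74.3) and 68.6%. Most terminal loops of either list thus had no match in the other at this distance. The share called again depends on the number of sorbitol loops per control loop. In wild type this number was 0.979 near the ends, 0.488 in the 3 to 10 Mb band and 0.391 over chromosomes 1 to 22. In eGFP-YAP it was 0.853, 0.399 and 0.298. The shares were not corrected for this, so a higher share near the ends does not show that control loops were better kept there. The share called again was 1.56% for wild type and 2.96% for eGFP-YAP with identical anchors (0 kb), and 25.6% and 25.1% with a matching distance of 25 kb.

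The share called again differed less between low and high scores near the ends than over all loops. Of the terminal control loops above the 90th percentile, 22.7% (15.2 to 32.5) were called again in wild type, against 24.3% of all such control loops. The eGFP-YAP share was 18.5% (11.6 to 28.3), against 29.8%. Of those below the 50th percentile, 8.96% (6.38 to 12.4) and 11.1% (8.33 to 14.7) were called again, against 4.15% and 4.17% of all such loops. The terminal shares lay above those of all loops in the lower part of the score range, and in eGFP-YAP below them at the top. These shares, too, were not corrected for the number of sorbitol loops per control loop.

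Sharing between the lines was lower for terminal control loops than for all control loops in wild type, and within counting error in eGFP-YAP. In the control list of the other line 31.3% (28.0 to 34.8) of the wild-type terminal control loops were found, against 39.7% (37.2 to 42.2) in the 3 to 10 Mb band and 40% of all control loops. From the eGFP-YAP side it was 29.7% (26.5 to 33.1), against 33.7% (31.5 to 35.95) and 32.2%. Terminal sorbitol loops were found in the other line's sorbitol list in 24.0% (20.9 to 27.3) and 26.0% (22.7 to 29.5) of cases, against 24.2% and 25.6% of all sorbitol loops. Of the wild-type loops without a control partner, 115 of 599 matched such a loop of the other line, 19.2% (16.2 to 22.5), against 15.4% of all such loops, and 115 of 536 eGFP-YAP loops did, 21.5% (18.2 to 25.1), against 19%. Control-only loops matched in 24.4% (21.2 to 28.0) and 23.4% (20.3 to 26.8) of cases, against 33.3% and 27.3%. In all, 20 terminal loops were present in all 4 lists, 150 were control-only in both lines and 115 sorbitol-only in both.

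Part of the sorbitol-only anchors lay near an anchor of a control loop, and no level at moved anchors was computed for this share. In wild type 42.3% (39.6 to 45.1) of 1198 terminal sorbitol-only anchors lay within 10 kb of a control anchor, and 46.4% (43.4 to 49.4) of 1072 did in eGFP-YAP. The 3 to 10 Mb band gave 41.7% (38.9 to 44.5) and 47.6% (44.5 to 50.7), within the same intervals. Both anchors were near control anchors in 18.4% of wild-type and 20.7% of eGFP-YAP terminal sorbitol-only loops, and neither was in 33.7% and 28.0%.

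The anchors of the classes were then compared for CTCF motifs. A match marks sequence and not occupancy, and the level to compare with is that of the same anchors moved 100 kb towards the centromere. In wild type 30.9% (28.4 to 33.6) of terminal control-only anchors held a match, against 19.5% at moved anchors, and 21.7% (19.5 to 24.1) of sorbitol-only anchors did, against 18.4%. In eGFP-YAP the shares were 37.8% (35.2 to 40.5) against 17.6%, and 23.5% (21.1 to 26.1) against 20.6%. Shared anchors held a match in 35.4% (28.7 to 42.7) and 38.9% (32.4 to 45.8) of cases. For sorbitol-only anchors the moved level lay just below the interval in both lines. In the 3 to 10 Mb band 23.3% of wild-type sorbitol-only anchors held a match, against 15.1% at moved anchors. The eGFP-YAP share there was 21.8%, against 19.2%. Over chromosomes 1 to 22 sorbitol-only anchors gave 18.2% against 12.5% in wild type and 20.3% against 13.7% in eGFP-YAP. Control-only anchors there gave 23.8% and 32.3%, so a lower share among sorbitol-only anchors was not particular to the ends. The moved level was itself high near the ends, since control-only anchors of all chromosomes gave 9.75% and 9.62% when moved.

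Motif pairs pointing towards each other were less frequent among terminal control-only loops than further in. Among loops with motifs on a single strand at each anchor they made up 24 of 55 in wild type, 43.6% (31.4 to 56.7), against 71.6% (62.2 to 79.4) of 102 in the 3 to 10 Mb band. In eGFP-YAP they made up 61 of 95, 64.2% (54.2 to 73.1), against 76.3% (69.8 to 81.8) of 190, and the intervals overlapped. For sorbitol-only loops the counts were small, 9 of 22 in wild type and 5 of 23 in eGFP-YAP. For shared loops they were 5 of 11 and 15 of 16. The 17p loop printed above is of this kind, and the 11p pair on a single strand is not.

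Gene starts were more frequent at sorbitol-only than at control-only anchors. Starts were taken from protein-coding genes of GENCODE release 44. A start was present in 27.6% (25.2 to 30.2) of wild-type terminal sorbitol-only anchors, against 9.18% at moved anchors, and in 8.96% (7.49 to 10.7) of control-only anchors, against 7.41%. In eGFP-YAP the shares were 33.3% (30.5 to 36.2) against 10.9%, and 12.8% (11.1 to 14.7) against 7.36%. Shared anchors lay between, with 12.4% (8.31 to 18) and 22.2% (16.99 to 28.5). Wild-type loops with a start at each end made up 0.977% of the control-only, 3.37% of the shared and 13.02% of the sorbitol-only class. The eGFP-YAP values were 2.48%, 8.08% and 18.3%. The 3 to 10 Mb band had similar sorbitol-only shares, 25.4% (22.996 to 27.9) and 37.3% (34.3 to 40.3), which overlap the terminal intervals.

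**Figure D5:**
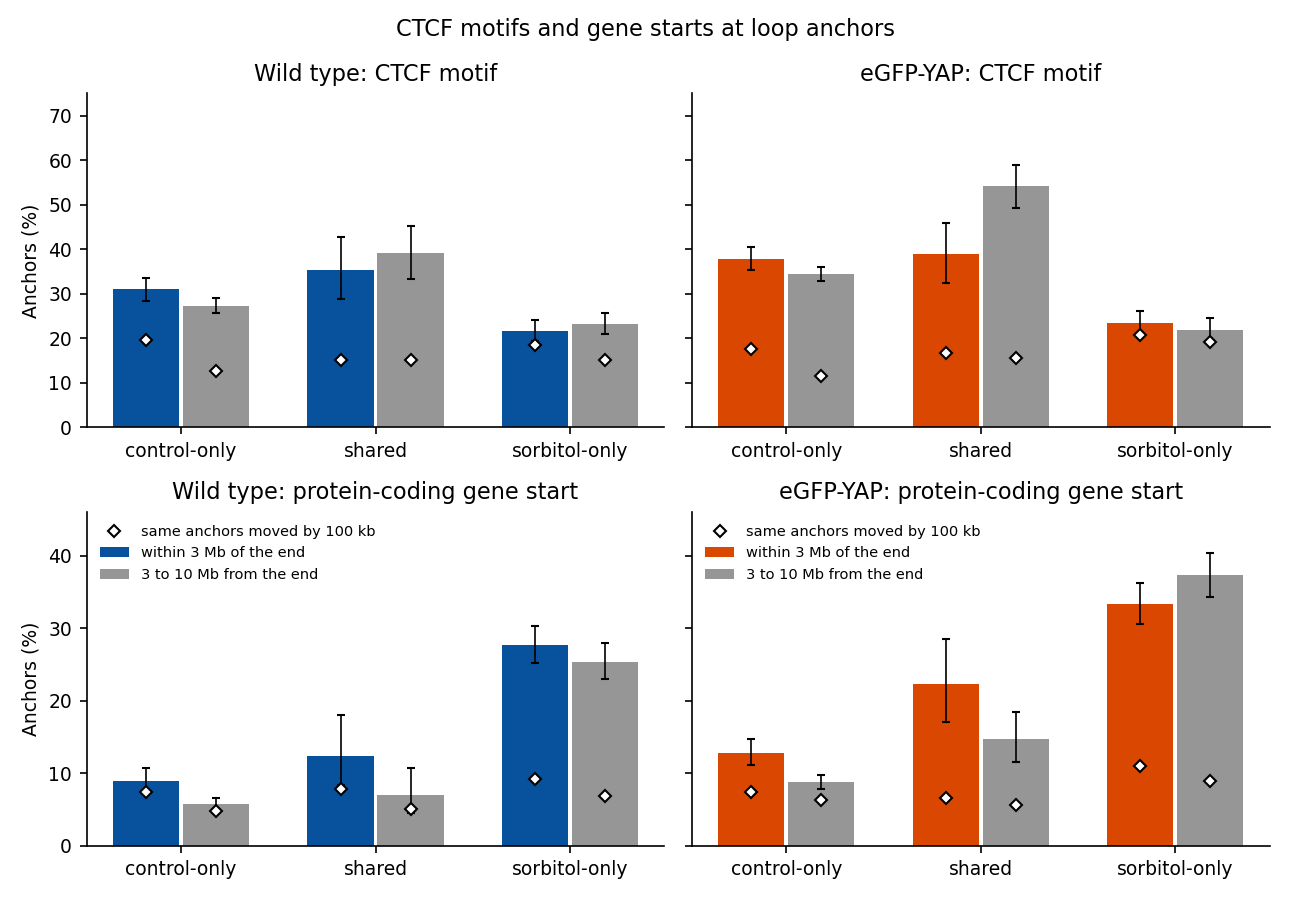
Share of anchors in percent (vertical axes) with a CTCF motif (upper panels) and with a protein-coding gene start (lower panels) for control-only, shared and sorbitol-only loops, wild type on the left and eGFP-YAP on the right. Coloured bars are loops within 3 Mb of the end, grey bars loops 3 to 10 Mb from it, with Wilson 95% intervals, and diamonds the same anchors moved by 100 kb. Gene starts lie in 27.6% and 33.3% of terminal sorbitol-only anchors and in 8.96% and 12.8% of terminal control-only anchors.

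Anchors rich in G and C hold more gene starts, so the classes were also compared at matched GC content. Among terminal anchors of 45 to 55% GC, 24.7% (20.7 to 29.2) of sorbitol-only and 4.66% (3.07 to 7.01) of control-only anchors held a start in wild type, and 28.2% (23.8 to 33.1) and 10.7% (8.31 to 13.7) did in eGFP-YAP. At 55% GC and above the shares were 39.0% (35.1 to 43.0) and 18.5% (15.2 to 22.3), and 44.8% (40.6 to 49.0) and 24.1% (20.2 to 28.3). In these classes of GC content the intervals of sorbitol-only and control-only anchors did not overlap in either line. Below 45% GC they did, with 3.56% (1.81 to 6.86) and 0.962% (0.328 to 2.79) in wild type, and 7.10% (4.11 to 12) and 2.27% (1.16 to 4.42) in eGFP-YAP. In the 3 to 10 Mb band the sorbitol-only shares at 55% GC and above were higher, 46.2% (40.2 to 52.2) and 55.7% (50.03 to 61.2).

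Interstitial telomere repeats, read as 3 uninterrupted TTAGGG units on either strand, were almost absent from the anchors. They were found in 1 of 1228 control-only, 0 of 178 shared and 3 of 1198 sorbitol-only anchors in wild type, and in 1 of 1290, 1 of 198 and 0 of 1072 in eGFP-YAP. Over chromosomes 1 to 22, terminal anchors included, they were in 5 of 27488, 1 of 2338 and 5 of 9310 in wild type. The eGFP-YAP counts were 4 of 33552, 2 of 3458 and 3 of 7554. The terminal counts are too small for a difference from all anchors to be read. A count of 0 allows a share of up to 1.69% of the wild-type shared anchors and 0.280% of the eGFP-YAP sorbitol-only anchors.

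Of 1643 protein-coding genes that start in the terminal band, 129 (7.85%) had their start in a terminal anchor of the wild-type control list and 353 (21.5%) in the sorbitol list. In eGFP-YAP the numbers were 191 (11.6%) and 347 (21.1%). A higher share with sorbitol was not particular to the ends. Over chromosomes 1 to 22 a start lay in 5.44% of control-only and 23.5% of sorbitol-only anchors in wild type. The eGFP-YAP shares were 7.19% and 31.2%. Counts of genes outside the terminal band are not given here. Starts of 107 genes lay in anchors of both sorbitol lists and of neither control list, those of 18 genes in both control lists and neither sorbitol list, those of 15 genes in all 4 lists, and those of 957 genes in no list. Of the 107 genes, 81.3% (72.9 to 87.6) had a GC box GGGCGG on either strand in the 300 bases around the start (250 before and 50 after, read from hg38 at the GENCODE start), against 65.8% (63.5 to 68.0) of all terminal genes and 52.6% (51.9 to 53.3) of all genes of chromosomes 1 to 22. Their windows were also richer in G and C, with a median of 73.0% against 68.0% and 60.3%.

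Anchors used by several loops were more frequent in the terminal sorbitol lists. In wild type 14.8% (12.9 to 16.96) of the terminal anchor segments of the sorbitol list belonged to 2 or more loops, against 9.76% (8.24 to 11.5) in control. In eGFP-YAP the shares were 19.5% (17.2 to 22.04) and 15.5% (13.6 to 17.7). The eGFP-YAP intervals overlap. In the 3 to 10 Mb band they went from 11.3% to 9.69% and from 17.1% to 15.1%.

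The segment with most loops in both sorbitol lists was chr10:132535001-132540000, which holds the start of INPP5A, a phosphatase of inositol phosphates. It anchored 5 loops in the wild-type and 6 in the eGFP-YAP sorbitol list. In eGFP-YAP cells the segments with the starts of PTDSS2, a phosphatidylserine synthase gene on 11p, and CDCA4 on 14q also anchored 6 loops with sorbitol. In the wild-type control list the busiest segments, with 5 loops each, were chr6:1665001-1670000 and chr6:2105001-2110000, within GMDS on 6p, which encodes an enzyme of fucose synthesis. In the eGFP-YAP control list chr6:170520001-170525000 anchored 6 loops, as many as the busiest segments with sorbitol, and held no gene start.

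The following genes were chosen after their values were seen, for the largest differences in loop number. INPP5A had 0 loops in wild-type control, 5 in wild-type sorbitol, 2 in eGFP-YAP control and 6 in eGFP-YAP sorbitol. Its neighbour DPYSL4 had 0, 4, 0 and 4, and in eGFP-YAP with sorbitol the starts of both genes were joined to each other over 350 kb at score percentile 97.2. Both genes also reached STK32C, a kinase gene between them, in both sorbitol lists. CDCA4 had 0, 2, 1 and 6 loops, which reached the starts of AKT1, the kinase gene, and CEP170B in wild type and the starts of CLBA1, PACS2, CRIP1 and TMEM121, among others, in eGFP-YAP. PCBP3, an RNA-binding protein gene on 21q, had 1, 2, 0 and 6, and SUMO3, which encodes a ubiquitin-like modifier, had 0, 3, 0 and 3. The starts of SUMO3 and PCBP3 were joined over 825 kb in wild type with sorbitol at percentile 97.9. MAPK15, an atypical MAP kinase gene on 8q, had 0, 2, 0 and 4, with the start of NRBP2 as a partner in both lines. In the other direction, ZNF250 on 8q had 2, 0, 2 and 0, C17orf97 had 1, 0, 2 and 0, CDKN1C had 1, 0, 2 and 0, and DPP7, a peptidase gene on 9q, had 2, 0, 1 and 0. These counts are of loops with the gene start itself in an anchor, and CDKN1C is described further below.

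Single loops were ranked by their mean score percentile over the lists that held them, with wild-type coordinates. Among sorbitol-only loops of both lines the first, with 98.8, joined an intron of ADNP2, a homeobox gene, in chr18:80120001-80125000 to the start of PARD6G in chr18:80245001-80250000 over 125 kb. Its score percentiles were 99.2 and 98.3, and neither anchor held a CTCF match. The start of PARD6G lay in an anchor of 1 other loop, in the wild-type control list. The next, with 98.2, spanned 850 kb on 6q from chr6:169700001-169705000, with the starts of WDR27 and C6orf120, to chr6:170550001-170555000, with those of PSMB1, a proteasome subunit gene, and TBP, the TATA-binding protein gene. Neither of its anchors held a match. In the eGFP-YAP control list the segment with PSMB1 and TBP was joined over 830 kb to chr6:169720001-169725000, at percentile 61.8. The left anchor of that loop lay beyond the 10 kb matching distance. The third, with 97.8, joined SLC19A1 in chr21:45555001-45560000, with the 21q site printed above, to the start of COL6A1, a collagen gene, in chr21:45980001-45985000. The fourth, with 97.1, joined chr2:240230001-240235000, outside protein-coding genes, to the start of DUSP28, a phosphatase gene, in chr2:240560001-240565000. Its left anchor held 4 CTCF matches, 3 on the plus and 1 on the minus strand. Gene starts thus lay at the right anchor of all 4 loops.

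Of the 4 highest-ranking control-only loops of both lines, at most 1 per arm, the one on 17p had percentiles of 99.9 (wild type) and 99.4 (eGFP-YAP) and held the start of C17orf97 at its left anchor. The other 3 held no gene start. They were the 11p loop from TRPM5 to KCNQ1, a 255 kb loop from ATP9B, a phospholipid flippase gene, in chr18:79375001-79380000 to chr18:79630001-79635000 with 96.9, and a 125 kb loop from SLCO4A1, an organic anion transporter gene, in chr20:62665001-62670000 to chr20:62790001-62795000 with 96.9.

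At the wild-type control coordinates, none of the 4 highest-ranking loops in all 4 lists held a gene start. The first joined introns of ASB7, a ubiquitin ligase adaptor gene, and LRRK1, a kinase gene, on 15q over 380 kb, from chr15:100620001-100625000 to chr15:101000001-101005000. Its percentiles were 92.8 in wild-type control, 99.0 in wild-type sorbitol, 98.2 in eGFP-YAP control and 98.3 in eGFP-YAP sorbitol. The second joined chr20:815001-820000, outside protein-coding genes, to RSPO4, a Wnt agonist gene, in chr20:955001-960000, with 92.0, 94.1, 99.0 and 97.5. The third spanned 520 kb on 6q outside protein-coding genes, from chr6:168365001-168370000 to chr6:168885001-168890000, with 98.3, 89.2, 95.9 and 97.1. The fourth joined the KCNQ1 intron in chr11:2530001-2535000 to chr11:2890001-2895000, and its percentiles of 99.2 and 99.9 in the control lists stood above those of 89.3 and 89.7 in the sorbitol lists.

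Genes known for their place near chromosome ends were counted by list. Among 24 developmental transcription factor genes, starts lay in terminal anchors for 2 in wild-type control, 4 in wild-type sorbitol, 2 in eGFP-YAP control and 3 in eGFP-YAP sorbitol. These shares, 8.33%, 16.7%, 8.33% and 12.5%, stand beside 7.85%, 21.5%, 11.6% and 21.1% of all terminal genes. FOXC1, a forkhead gene of eye and heart development on 6p, had 2, 3, 2 and 1 loops, all ending within GMDS, with a highest percentile of 99.4 in wild-type sorbitol. FOXF2 had 2 loops, in eGFP-YAP control only. SOX8 and ZFPM1 had loops in sorbitol lists only, with highest percentiles of 89.5 and 90.6.

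Among 15 growth signalling genes the numbers were 2, 6, 2 and 4, or 13.3%, 40%, 13.3% and 26.7%. All terminal genes gave 7.85%, 21.5%, 11.6% and 21.1%. DLL1, a Notch ligand gene on 6q, had 0, 2, 0 and 2 loops, and its partners included the segment with the starts of PSMB1 and TBP in eGFP-YAP, at percentile 89.8, and the adjacent segment in wild type, at 97.5. AXIN1, a Wnt pathway scaffold gene on 16p, had 0, 2, 1 and 1. IGF2, an imprinted growth factor gene on 11p, had 1 loop, in wild-type sorbitol at 89.4. CDKN1C, an imprinted inhibitor of the cell cycle in the same cluster, had its start in anchors of the control lists only. The highest percentile, 99.9, belonged to a 355 kb loop from this start to the KCNQ1 intron in eGFP-YAP control. That loop matches the 11p loop found in all 4 lists, whose right anchor holds the CDKN1C start in eGFP-YAP control only. In wild-type control this anchor was chr11:2890001-2895000, which adjoins the segment with the start on the other side. With sorbitol this anchor was chr11:2880001-2885000 in both lines, which overlaps CDKN1C and adjoins the segment with its start. The wild-type sorbitol loop of the KCNQ1 start ended in the same segment, so contacts at CDKN1C were still called with sorbitol.

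Among 17 genes of terminal deletion syndromes the numbers were 0, 6, 1 and 2. These shares, 0%, 35.3%, 5.88% and 11.8%, stand beside 7.85%, 21.5%, 11.6% and 21.1% of all terminal genes. The genes with loops included TBP with 0, 1, 1 and 3. CTDP1, an RNA polymerase II phosphatase gene on 18q, had 1 loop at percentile 98.9 in wild-type sorbitol. NSD2 and LETM1 on 4p had 1 and 2 loops in wild-type sorbitol. Among 11 genes of the alpha-globin cluster and its neighbours the numbers were 1, 0, 2 and 0, or 9.09%, 0%, 18.2% and 0%. HBA1 was joined over 70 kb to NPRL3, the gene that holds the globin enhancers, in both control lists at percentiles of 12.3 and 20.9. HBQ1 had 1 loop in eGFP-YAP control at 29.4. Of 3 terminal genes of the telomere biology list, TERT, the telomerase gene, had no loop, while RTEL1, a helicase gene, and CLPTM1L, the neighbour of TERT, had 2 and 1 loops in wild-type sorbitol and none in the other lists. Among 15 housekeeping genes the numbers were 1, 5, 2 and 4, or 6.67%, 33.3%, 13.3% and 26.7%. PSMB1 shared the 3 eGFP-YAP sorbitol loops of TBP, UBE2M had 1 loop in each eGFP-YAP list, at percentile 29.4 in control and 92.8 with sorbitol, RPL8 had 1, 1, 0 and 2 loops, and TUBB3 had 1, in wild-type sorbitol. The lists are short, so no direction against all terminal genes was read, and their counts describe these 4 loop lists only.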

How the data were processed

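The authors deposited 1 loop list per condition, with the columns of the SIP caller per the file headers. Anchor coordinates are genome positions in bases, the deposited peak score has no fixed scale and was ranked within each list, and the probability of enrichment, deposited as a fraction, was not used as a filter. The build, hg38, comes from the submitters' processing notes. The caller's settings and the normalisation of the contact maps are not given in the sources used here. No column was left without a group (0). Anchors in reverse order (2, 1, 1 and 0 loops) were sorted.

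Members, bands, gene lists and classes were chosen with earlier results of these data known. Named were the 5 arms with the most control loops, the 4 loops per class with the highest mean percentile (at most 1 per arm), the nearest, longest and borderline loops, and up to 4 genes per list. Shares have Wilson, ratios exact, medians order-statistic and ratios of ratios log-scale 95% intervals. Promoter windows in RefSeq matched 1193 of 1643 terminal genes (72.6%), so motif shares were computed from hg38 at GENCODE starts. Band assignment, loop matching, the search for exact motifs and the interval of the ratio were tested on simulated data, and the other steps were not. Alternatives were bands of 2 and 5 Mb, the upper 50% by score, merging, 0 and 25 kb matching, motif and anchor settings, all annotated genes, and leaving out the outermost 0.5 Mb, the fullest arm or chromosomes 19 and 22. Python 3.11.15, numpy 2.4.6, pandas 2.3.3, scipy 1.17.1 and matplotlib 3.10.9 were used.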

Additional observations from a re-analysis of the deposited data

Results flagged for a closer look

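Of 29 contrasts set side by side in both lines, 8 went opposite ways. None of these differences between the lines was tested, since each condition has 1 list. Within 0.5 Mb of the end, sorbitol over control loops gave 1.37 for wild type and 0.948 for eGFP-YAP. On 21q the terminal ratios were 0.727 (wild type) and 1.11 (eGFP-YAP), and on 9q they were 1.52 and 0.75. The share of sorbitol-only anchors with a CTCF motif, terminal minus 3 to 10 Mb, was -1.59 percentage points in wild type and 1.66 in eGFP-YAP. The same difference in the share of sorbitol-only anchors with a gene start was 2.26 (wild type) and -3.97 (eGFP-YAP) percentage points. The share of motif pairs pointing towards each other, terminal minus 3 to 10 Mb, differed by -21.2 and 16.96 percentage points among shared loops, from 11 and 16 terminal pairs, and by 3.41 and -28.3 among sorbitol-only loops, from 22 and 23. The median score percentile of control loops, terminal minus 3 to 10 Mb, was 0.629 and -1.44.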

How the results depend on the processing

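No paired analysis was possible because each condition has 1 pooled list, and for the same reason no replicate could be left out. Merging neighbouring loops removed 1 loop in all lists, changed none of its 12 values and was no test. Of 88 other recomputed values, 45 stayed within the interval of the reported value and 43 left it. The terminal ratio stayed above that of the comparison band in both lines under the 6 other alternatives tried for it. A 2 Mb band gave a wild-type ratio of 1.05, on the other side of 1 from the reported 0.979. A 5 Mb band gave terminal ratios of 0.769 in wild type and 0.692 in eGFP-YAP, quotients over the ratio of the 5 to 10 Mb band of 1.51 and 1.82, a wild-type control span of 185 kb, and gene starts at 7.43% and 10.4% of control-only anchors. The upper 50% by score gave ratios of 1.11 and 1.07, both on the other side of 1 from the reported 0.979 and 0.853, a quotient of 2.66 in eGFP-YAP, 10.1% and 10.7% of control loops called again, 91.0% and 90.1% sorbitol-only loops, and median spans of 200 kb (control) and 237.5 kb (sorbitol) in wild type and 210 and 245 kb in eGFP-YAP. Without chromosomes 19 and 22 the eGFP-YAP quotient was 2.46. Matching at 0 kb gave 1.56% and 2.96% called again and 98.4% and 96.5% sorbitol-only, and matching at 25 kb gave 25.6% and 25.1%, and 74.3% and 70.6%. With no mismatch, motifs lay in 5.54% of control-only and 2.42% of sorbitol-only anchors in wild type and 6.98% and 2.43% in eGFP-YAP. Anchors widened by 5 kb on each side gave motifs in 59.4% and 49.3%, and 63.2% and 51.4%, and gene starts in 21.7% and 48.5%, and 29.1% and 55.3%. Starts of all annotated genes lay in 18.9% and 36.1%, and 22.7% and 43.9%. The order of the classes was the same in each of these. Shares of loops called again depend on the matching distance by construction.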

Other observations

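For the other promoter motifs searched, the shares of all terminal genes lay within the intervals of the 107 genes described above. In the windows of the 107 genes with starts in both sorbitol lists and neither control list, CCAAT on either strand was present in 28.0% (20.4 to 37.2), against 31.0% (28.9 to 33.3) of all terminal genes. TATAAA was present in 4.67% (2.01 to 10.5) against 8.89% (7.60 to 10.4), and the cAMP response element TGACGTCA in 2.80% (0.958 to 7.92) against 2.74% (2.05 to 3.65). The TATAAA share rests on 5 windows, too few to show similar levels. Genes in no list had TATAAA in 10.1% (8.38 to 12.2) of windows. The 149 genes with starts in either or both control lists and in neither sorbitol list had a GC box in 63.1% (55.1 to 70.4) of windows. That interval holds the 65.8% of all terminal genes. The rule for this group is looser than that for the 107 genes, which needed both sorbitol lists, so the groups are not like sets.

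Between the lines, terminal control loops were as many in eGFP-YAP as in wild type within counting error, a ratio of 1.06 (0.953 to 1.17), while all control loops of chromosomes 1 to 22 had a ratio of 1.24 (1.21 to 1.27). The corresponding ratios in the sorbitol lists were 0.923 (0.827 to 1.03) and 0.945 (0.911 to 0.981).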
